A study of Homo sapiens with 8 samples.

Results

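The nutrient sensors described here are 10 genes of the mTORC1, AMPK and sestrin pathway, DDIT4, SESN1, SESN2, SESN3, TSC1, TSC2, MTOR, RPTOR, PRKAA1 and PRKAA2, taken by symbol from a table of 21077 genes. Each of the 10 symbols had 1 row, and all 10 passed the filter on low values that left 15570 genes for testing. The table holds RNA-Seq profiles of Hs578T, an established line of human breast cancer cells negative for the estrogen receptor. The high-glucose group (4 libraries) was kept for 48 hours at 25 mM glucose and the low-glucose group (4 libraries) for 48 hours at 5 mM glucose, and the comparison asks how hyperglycemia, modeled by the higher level, alters expression in these cells. By the methods of the study, such cultures were conditioned in low glucose and then treated in medium without serum, so serum withdrawal was shared by both groups. All libraries come from 1 cell line, and an osmotic control was not analysed here, so glucose and osmolarity cannot be told apart.

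mTORC1 is a protein kinase complex built on MTOR and its scaffold RPTOR that promotes protein synthesis and growth when amino acids, energy and growth factors are sufficient. AMPK, whose catalytic alpha subunits are encoded by PRKAA1 and PRKAA2, is activated when cellular energy falls and restrains mTORC1, partly through the TSC1 and TSC2 complex, which switches off the small GTPase RHEB. DDIT4 (REDD1) and the sestrins are stress-induced inhibitors of mTORC1, and SESN2 also serves as a leucine sensor.

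Values are normalized signal, taken as CPM (read counts scaled for library depth, here with TMM factors), and are given per library in the order of replicates 1 to 4. Fold changes are differences of log2(CPM + 1), high minus low glucose, so they understate the change of genes with little signal. Adjusted p values are from limma with Benjamini-Hochberg adjustment over all genes tested. A gene was called at an adjusted p under 0.05. Estimated depth was 10244900 to 11956678 reads per library, at which 1 read was worth 0.0867 to 0.118 CPM. Column sums were 1017015 to 1036274 in the high-glucose and 1205567 to 1229021 in the low-glucose libraries, so rescaling every library to the same total moved the median fold change of all genes from near 0 to 0.20. Fold changes are given relative to the deposited scaling. The mesenchymal marker VIM was at 3567 to 3909 CPM in high and 8269 to 8581 CPM in low glucose, ESR1 was at most 0.270 CPM, and EPCAM (epithelial), CDH5 (endothelial) and HBA1 (erythroid) were at 0 in all 8 libraries. Of the other epithelial markers, CDH1 had 0.360 to 0.902 CPM in high and 0.108 to 0.553 CPM in low glucose, and KRT19 had at most 0.180 CPM in high and 0.217 CPM in low glucose. Of the leukocyte markers, PTPRC had 0.382 to 1.08 CPM in high and 0 to 0.221 CPM in low glucose, and CD14 had 0.601 to 1.53 CPM in high and 0.217 to 0.708 CPM in low glucose. The endothelial marker PECAM1 had 4.91 to 6.21 CPM in high and 1.63 to 2.44 CPM in low glucose, and the part of these low signals in the results was not tested.

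Of the 10 genes, 5 fell (TSC2, SESN2, DDIT4, SESN3 and MTOR), 1 rose (SESN1) and 4 were not called (RPTOR, TSC1, PRKAA1 and PRKAA2), though MTOR was at 0.09 and not called when all libraries were rescaled to the same total. The largest changes were those of TSC2, SESN2, DDIT4 and SESN3, expressed at 0.374, 0.477, 0.530 and 0.641 times their low-glucose level, and of SESN1, at 1.82 times. These genes act upstream to inhibit mTORC1, but so do TSC1, PRKAA1 and PRKAA2, which were not called. Of the 15570 tested genes, 72.9% were called, 35.7% higher and 37.2% lower, so 6 called genes of 10 were not more than the share over all genes. The groups did not overlap for 6 of the 10 genes, against 66.7% of tested genes. The median fold change of the 10 genes was -0.15, or 0.09 with all libraries at the same total. That of all tested genes was 0.00, or 0.20 at the same total. A lower fold change than that of TSC2 was found for 2.94% of tested genes, and a lower one than that of SESN2 for 7.35%.

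**Figure D1:**
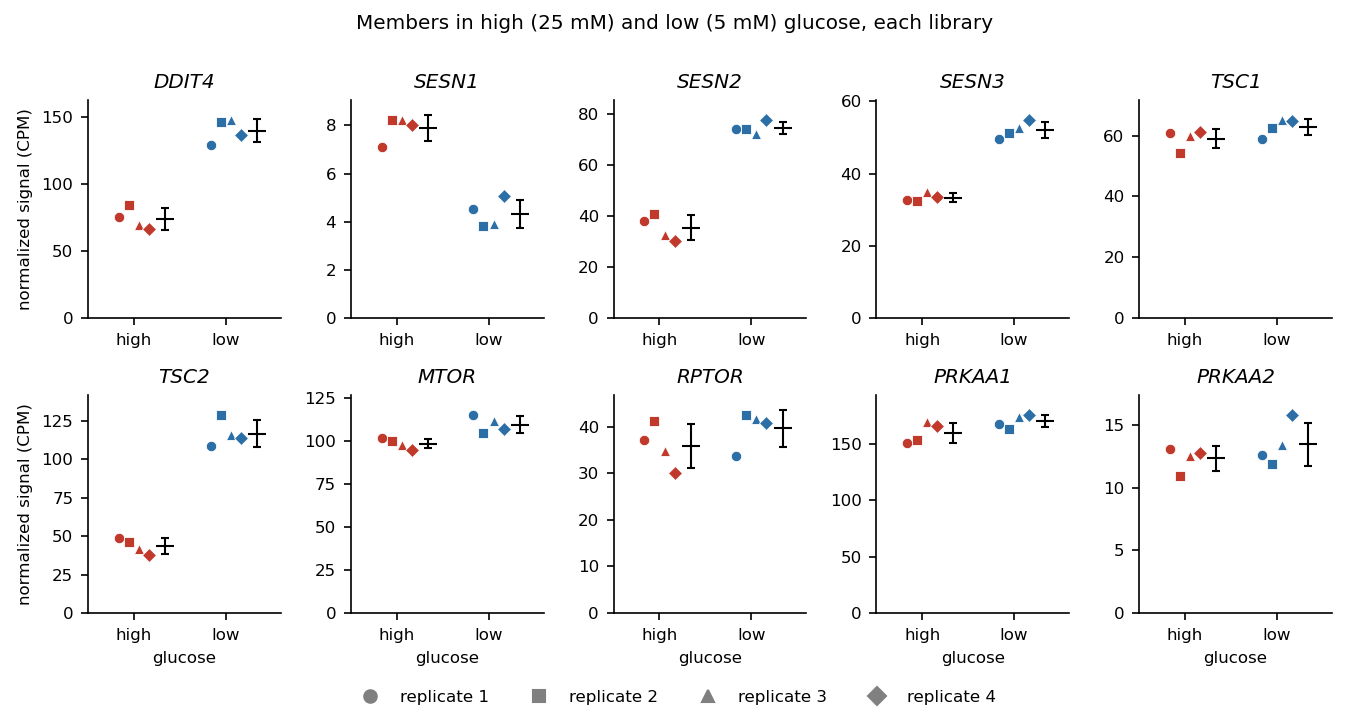
Normalized signal (CPM, vertical axis starting at 0) of the 10 genes in each library, with high glucose left of low glucose. Symbols mark replicates 1 to 4, and the bar beside each group shows the mean and SD (n = 4). DDIT4, SESN2, SESN3 and TSC2 were lower in every high-glucose library than in any low-glucose library, and SESN1 was higher.

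The start regions of the 4 genes that fell most are printed because factors that bind such sequences are known to induce DDIT4 and SESN2. They are RefSeq windows on GRCh38.p14, read 5′ to 3′ on the strand of the gene, with 250 bases before and 50 bases from the start. Capitals mark matches on either strand to 4 motifs. These were ACGTG, a form of the core of the hypoxia response element (other forms were not searched), and CACGTG, an E-box. The third was TGATGNAA, a composite site for ATF4 with a C/EBP partner. The last was CCAAT, which reads as ATTGG on the opposite strand.
DDIT4, chr10:72273674-72273973, plus strand: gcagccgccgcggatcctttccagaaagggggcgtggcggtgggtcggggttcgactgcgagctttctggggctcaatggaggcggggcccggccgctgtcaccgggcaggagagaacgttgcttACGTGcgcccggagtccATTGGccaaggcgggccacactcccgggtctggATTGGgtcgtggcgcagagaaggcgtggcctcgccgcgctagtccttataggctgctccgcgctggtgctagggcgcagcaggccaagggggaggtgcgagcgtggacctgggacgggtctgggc
SESN2, chr1:28259268-28259567, plus strand: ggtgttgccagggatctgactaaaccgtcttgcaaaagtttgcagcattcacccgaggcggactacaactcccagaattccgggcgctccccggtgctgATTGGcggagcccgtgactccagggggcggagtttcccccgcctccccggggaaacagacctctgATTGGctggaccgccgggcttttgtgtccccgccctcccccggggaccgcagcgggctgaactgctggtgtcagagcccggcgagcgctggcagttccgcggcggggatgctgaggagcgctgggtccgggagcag
TSC2, first of 2 start sites, chr16:2047735-2048034, plus strand: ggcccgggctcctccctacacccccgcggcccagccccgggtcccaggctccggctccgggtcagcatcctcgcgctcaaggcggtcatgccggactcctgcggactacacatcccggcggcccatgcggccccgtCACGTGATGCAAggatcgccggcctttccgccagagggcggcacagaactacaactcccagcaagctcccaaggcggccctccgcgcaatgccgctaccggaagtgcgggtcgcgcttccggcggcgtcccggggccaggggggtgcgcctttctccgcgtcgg
SESN3, chr11:95232426-95232725, minus strand: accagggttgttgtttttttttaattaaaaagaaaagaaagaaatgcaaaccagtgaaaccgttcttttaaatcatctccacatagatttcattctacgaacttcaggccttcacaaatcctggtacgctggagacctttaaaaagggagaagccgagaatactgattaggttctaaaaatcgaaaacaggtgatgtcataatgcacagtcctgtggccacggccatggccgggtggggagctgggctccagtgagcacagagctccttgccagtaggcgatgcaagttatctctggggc

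The DDIT4 window held ACGTG at -125 and ATTGG at -108 and -75, counted from the start site. SESN2 held ATTGG at -151 and -86 and none of the other 3 motifs. In the TSC2 window CACGTG at -114 ran into TGATGCAA at -110, and the E-box also supplied both of its ACGTG matches. The window of the other TSC2 start site, chr16:2047952-2048251, held none of the 4 motifs. The SESN3 window held none of the 4 motifs. Among 35116 windows of this length, 3.62% held TGATGNAA, 21.41% ACGTG, 7.26% CACGTG and 34.61% CCAAT. SESN1, which rose, has 3 start sites, of which 2 held a single CCAAT box, at -90 and -75. MTOR held 3 CCAAT boxes, and the windows of RPTOR, TSC1, PRKAA1 and PRKAA2 held none of the motifs. These matches describe the letters of the windows, and binding was not measured here.

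DDIT4, which acts on the TSC complex to inhibit mTORC1 under hypoxia, energy stress and DNA damage, is at chr10:72273924-72276036 (hg38). It gave 75.2, 84.3, 69.6 and 66.4 CPM in the high-glucose libraries, against 129, 146, 147 and 136 CPM in the low-glucose libraries. Every high-glucose library was below every low-glucose library, and replicates 3 and 4 were the lowest within high glucose. DDIT4 averaged 73.9 ± 7.83 CPM in high and 139.5 ± 8.74 CPM in low glucose (SD, n = 4 each), a log2 fold change of -0.91 ± 0.0667 (SE; limma, adjusted p = 5.79e-09). In a bulk library, fewer cells that express a gene and less RNA per cell cannot be told apart. Per kilobase of its transcript, DDIT4 had the highest level of the 10 genes, 42.3 ± 4.48 CPM in high and 79.8 ± 5.00 CPM in low glucose.

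SESN2, a leucine-binding sestrin that is induced by the integrated stress response, is at chr1:28259518-28282491. Its signal was 38.3, 41.1, 32.5 and 30.5 CPM in high glucose, against 74.3, 74.3, 72.4 and 77.7 CPM in low glucose. The groups were far apart, and again replicates 3 and 4 were the lowest of the high-glucose libraries. The means were 35.6 ± 4.91 CPM in high and 74.7 ± 2.22 CPM in low glucose (SD, n = 4 each), and the log2 fold change was -1.06 ± 0.0781 (limma, adjusted p = 6.56e-09).

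SESN3, a sestrin known as a FOXO target, is at chr11:95165513-95232475. It was measured at 32.7, 32.5, 34.9 and 33.4 CPM in high glucose and at 49.5, 51.3, 52.7 and 54.7 CPM in low glucose. Libraries of each group lay close together and the groups did not overlap, with means of 33.4 ± 1.12 CPM in high and 52.0 ± 2.21 CPM in low glucose (SD, n = 4 each). The log2 fold change was -0.63 ± 0.0551 (limma, adjusted p = 5.28e-08).

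SESN1, a stress-induced member of the sestrin family, is at chr6:108984309-109094846 and rested on the fewest reads of the 10 genes. It had 7.10, 8.22, 8.21 and 8.02 CPM in the high-glucose libraries, against 4.54, 3.82, 3.90 and 5.07 CPM in the low-glucose libraries. The direction was opposite to that of the other sestrins, and the groups did not overlap although the value of a library rested on as few as 82 estimated reads in high and 34 in low glucose. SESN1 averaged 7.88 ± 0.534 CPM in high and 4.33 ± 0.587 CPM in low glucose (SD, n = 4 each), a log2 fold change of 0.74 ± 0.122 (limma, adjusted p = 5.28e-05). The span of SESN1 overlaps that of ARMC2, which had 0.971 ± 0.419 CPM in high and 1.81 ± 0.929 CPM in low glucose. Whether counting used the strand of a read is not stated for these libraries.

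The balance among the sestrins was set out as shares of their summed signal, which do not change when a whole library is multiplied by a constant. Without division by length, SESN2 carried the largest mean share of the summed sestrin signal in both groups, 46.2% ± 4.04 in high and 57.0% ± 0.809 in low glucose (SD, n = 4 each), although SESN3 exceeded it in high-glucose replicates 3 and 4. The share of SESN1 was 10.3% ± 0.919 in high and 3.30% ± 0.366 in low glucose, and that of SESN3 was 43.5% ± 3.30 in high and 39.7% ± 0.931 in low glucose. The SESN3 shares overlapped between the groups. Summed over the 3 genes, the signal was 76.9 ± 4.12 CPM in high and 131 ± 4.33 CPM in low glucose. The log2 ratio of SESN1 to SESN2 averaged -2.04 ± 0.235 in high and -3.83 ± 0.124 in low glucose, a difference of 1.80 with no overlap between the groups (1.38 with a correction for GC content). The ratio of SESN1 to SESN3 differed by 1.37 in the same direction, or by 1.40 with that correction. The ratio of SESN3 to SESN2 averaged -0.08 ± 0.229 in high and -0.51 ± 0.0523 in low glucose, a difference of 0.43, but the correction for GC content, in which these 2 genes lie far apart, put it at -0.0175.

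TSC2, the catalytic part of the TSC complex that acts on RHEB, is at chr16:2047985-2089491 and had the largest fold change of the 10 genes. It gave 48.9, 46.3, 41.4 and 37.7 CPM in high glucose, against 108, 129, 116 and 114 CPM in low glucose. No high-glucose library reached the lowest low-glucose library, and replicate 4 was the lowest of the high-glucose group. TSC2 averaged 43.6 ± 4.99 CPM in high and 117 ± 8.72 CPM in low glucose (SD, n = 4 each), with a log2 fold change of -1.40 ± 0.0742 (limma, adjusted p = 1.23e-10). Its end overlaps the end of PKD1 by 784 bases, and PKD1 was also lower, at 53.6 ± 6.89 CPM in high and 110.5 ± 18.8 CPM in low glucose (log2 fold change -1.03; limma, adjusted p = 2.32e-07). How reads in the shared stretch were assigned was not tested.

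TSC1, which stabilizes TSC2 in the complex, is at chr9:132891349-132945378. Its signal was 60.7, 54.4, 59.7 and 61.1 CPM in high and 59.0, 62.5, 65.0 and 64.6 CPM in low glucose. The groups overlapped, and the log2 fold change of -0.09 (95% interval -0.20 to 0.02) was not called (limma, adjusted p = 0.144). TSC1 was called lower with a correction for GC content (-0.14) and higher, at 0.15, with all libraries at the same total. The log2 ratio of TSC1 to TSC2 was 0.43 ± 0.205 in high and -0.88 ± 0.104 in low glucose (SD, n = 4 each), a difference of 1.31 (0.97 with a correction for GC content), and was above 0 in each high-glucose library and below 0 in each low-glucose library. Per kilobase, TSC1 stood at 6.86 and TSC2 at 6.79 CPM in high glucose, against 7.30 CPM for TSC1 and 18.2 CPM for TSC2 in low glucose.

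**Figure D2:**
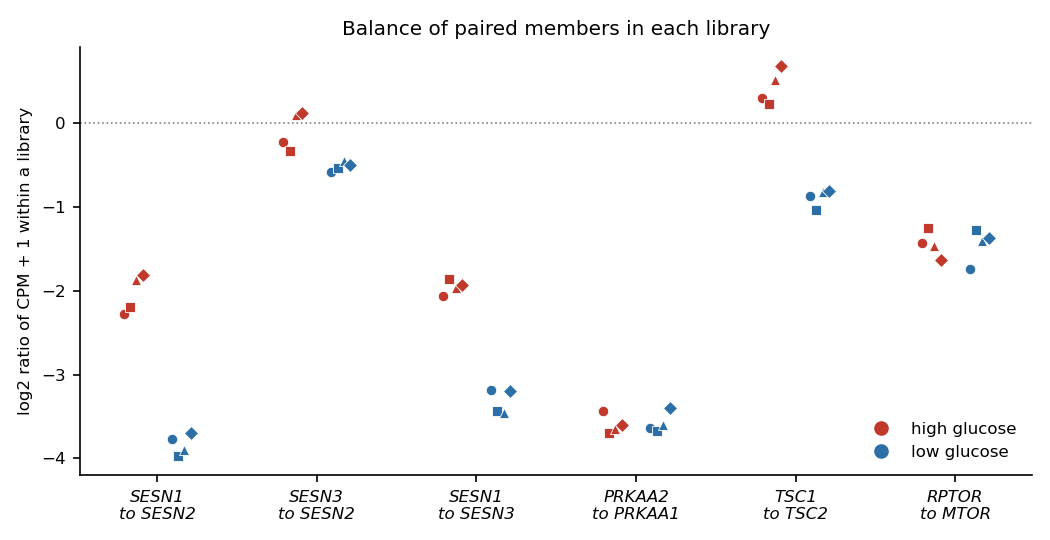
Log2 ratio of CPM + 1 (vertical axis) between 6 pairs of the genes within each library, with high glucose (red) left of low glucose (blue) and 1 symbol per library. The ratios of SESN1 to SESN2, SESN3 to SESN2, SESN1 to SESN3 and TSC1 to TSC2 did not overlap between the groups, whereas those of PRKAA2 to PRKAA1 and RPTOR to MTOR did. With a correction for GC content, which is not plotted, the difference of the SESN3 to SESN2 ratio was -0.0175.

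MTOR, the kinase of both mTOR complexes, is at chr1:11106535-11262551. It gave 101, 99.6, 97.6 and 94.8 CPM in the high-glucose libraries, against 115, 104, 111 and 107 CPM in the low-glucose libraries. The groups did not overlap, but the gap between the nearest libraries was small. MTOR averaged 98.4 ± 2.78 CPM in high and 109 ± 4.75 CPM in low glucose (SD, n = 4 each), a log2 fold change of -0.15 (95% interval -0.24 to -0.06; limma, adjusted p = 0.00595). The fold change was 0.09 (adjusted p = 0.062) at the same total and -0.05 (adjusted p = 0.329) after quantile scaling, so the call depended on the scaling.

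RPTOR, the scaffold that presents substrates to mTORC1, is at chr17:80544838-80966368. Its signal was 37.01, 41.3, 34.8 and 30.1 CPM in high glucose, against 33.8, 42.5, 41.6 and 40.7 CPM in low glucose. The groups overlapped, and high-glucose replicate 4 was the lowest library. The log2 fold change of -0.15 (95% interval -0.34 to 0.05) was not called (limma, adjusted p = 0.163), and it was 0.14 with a correction for GC content. Leaving out high-glucose replicate 2 or low-glucose replicate 1 moved it to -0.22 and past the threshold (limma, adjusted p = 0.0422 and 0.0402). The ratio of RPTOR to MTOR averaged -1.44 ± 0.153 in high and -1.45 ± 0.202 in low glucose on the log2 scale and overlapped between the groups, and their difference of 0.0048 was 0.25 with a correction for GC content.

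PRKAA1, which encodes the alpha 1 catalytic subunit of AMPK, is at chr5:40759389-40798374. It was measured at 151, 153, 169 and 166 CPM in high glucose, against 168, 164, 173 and 176 CPM in low glucose. The groups overlapped, and replicates 1 and 2 were the lowest of the high-glucose libraries. The log2 fold change was -0.09 (95% interval -0.19 to 0.00) and was not called (limma, adjusted p = 0.0741). It was called in the same direction with a correction for GC content (-0.28) and in the other direction at the same total (0.15), and leaving out high-glucose replicate 3 or 4 or low-glucose replicate 2 also moved it past the threshold (adjusted p = 0.0329, 0.0414 and 0.0483).

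PRKAA2, which encodes the alpha 2 catalytic subunit, is at chr1:56645314-56715335. It gave 13.1, 10.9, 12.5 and 12.8 CPM in high glucose, against 12.6, 11.9, 13.4 and 15.8 CPM in low glucose. These ranges overlapped, and the log2 fold change of -0.11 (95% interval -0.33 to 0.11) was not called (limma, adjusted p = 0.34), though it was called at -0.31 with a correction for GC content. PRKAA1 held 92.8% of the summed alpha subunit signal in high and 92.7% in low glucose, and the log2 ratio of PRKAA2 to PRKAA1 averaged -3.59 ± 0.116 in high and -3.57 ± 0.123 in low glucose. Per kilobase of transcript, PRKAA1 was at 30.4 CPM in high and 32.4 CPM in low glucose, above PRKAA2 at 1.32 CPM in high and 1.44 CPM in low glucose.

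Fold changes of the table moved with the GC content of the transcript, and the 10 genes differed widely in it. For the 15440 tested genes with a GC value, the median log2 fold change was 0.18 in the lowest of 5 equal bins of GC content (27.8% to 40.7%) and -0.34 in the highest (57.9% to 75.6%). DDIT4 (58.1%), SESN2 (59.6%), RPTOR (60.05%) and TSC2 (60.4%) were in the highest bin, and SESN1 (40.6%), SESN3 (37.1%), PRKAA1 (36.9%) and PRKAA2 (35.2%) in the lowest. Within high glucose, the highest bin deviated by 0.0754, 0.0989, -0.0279 and -0.146 (log2) from the group mean in replicates 1 to 4, and DDIT4, SESN2, RPTOR and TSC2 were also lowest in replicates 3 and 4. After a correction for GC content in each library, the log2 fold change was -1.11 for TSC2, -0.79 for SESN2, -0.69 for DDIT4, -0.81 for SESN3 and 0.60 for SESN1, and all 5 were still called (limma, adjusted p at most 0.000209).

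**Figure D3:**
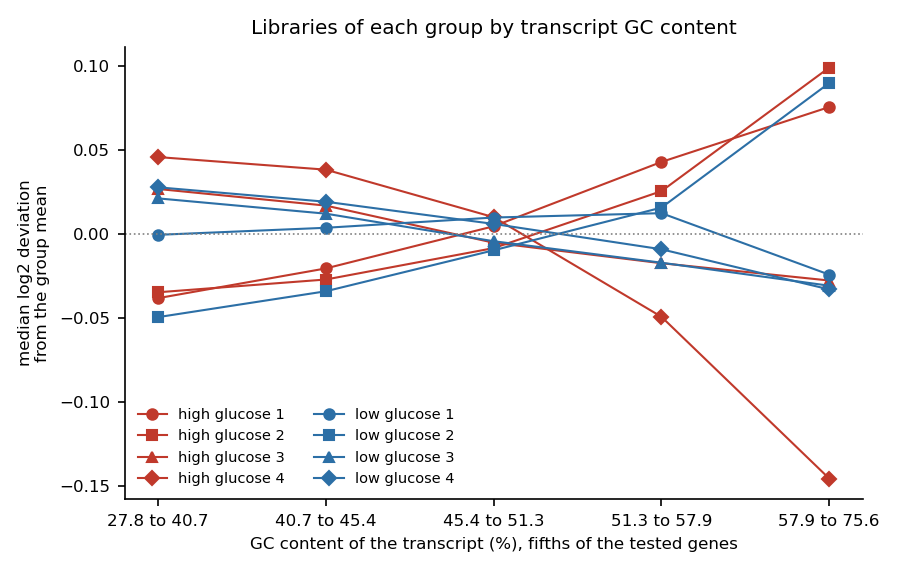
Median deviation (log2, vertical axis) of each library from the mean of its group over 5 equal bins of the tested genes by GC content of the transcript (percent, horizontal axis). Red lines are high-glucose and blue lines low-glucose libraries. In the highest bin, high-glucose replicate 4 was at -0.146 and replicate 2 at 0.0989.

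**Figure D4:**
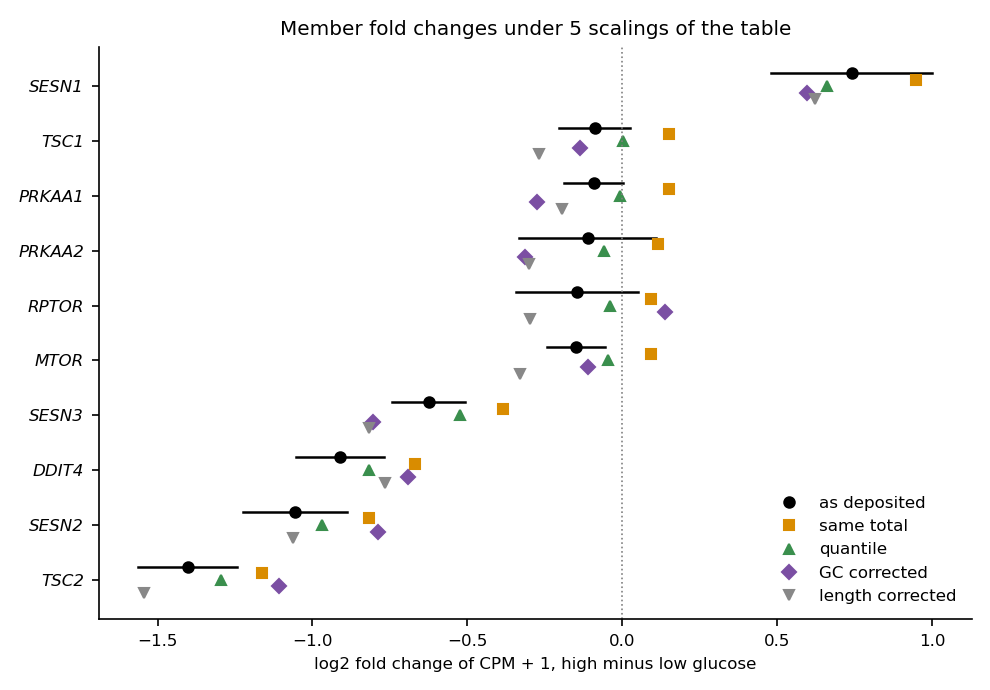
Log2 fold change of CPM + 1 (horizontal axis, high minus low glucose) of the 10 genes as deposited (black, with the 95% interval) and under 4 other treatments of the table. SESN1 stayed above 0 and SESN3, DDIT4, SESN2 and TSC2 below 0 in all 5, whereas MTOR, RPTOR, TSC1, PRKAA1 and PRKAA2 lay on either side of 0.

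The other genes of the pathway were read from 11 lists of 96 genes, 94 of them tested. Of these 94 genes, 28 rose, 46 fell and 20 were not called, and the groups did not overlap for 71. Of all 15570 tested genes, 72.9% were called (35.7% higher and 37.2% lower), and the groups did not overlap for 66.7%. The counts of each list below are to be read beside these shares. The median fold change was -0.18, or 0.05 with all libraries at the same total, under which 41 were called higher and 33 lower. Over all genes 5553 were called higher and 5797 lower (median 0.00), and 7325 higher and 4348 lower at the same total (median 0.20).

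**Figure D5:**
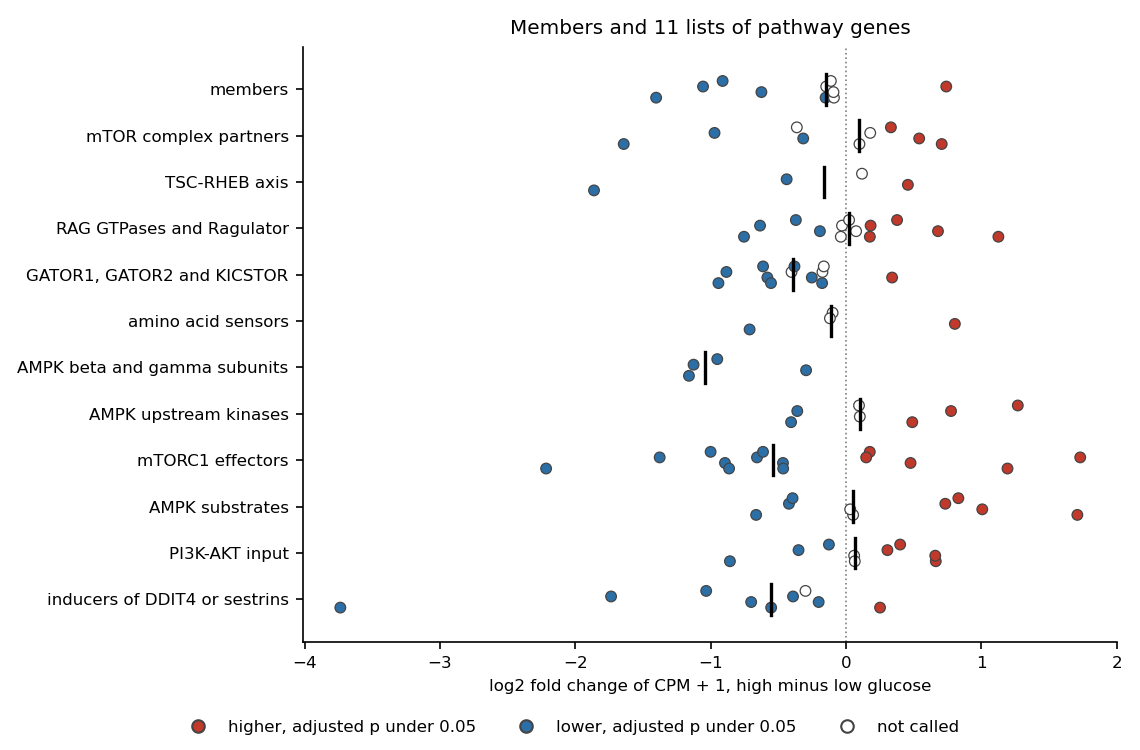
Log2 fold change of CPM + 1 (horizontal axis, high minus low glucose, deposited scaling) of the 10 genes (labeled members) and of 11 lists of pathway genes. Each point is a gene, filled where it was called higher (red) or lower (blue), and the vertical bar is the median of the list. The 4 tested AMPK beta and gamma subunits were all lower, and the lowest point is DDIT3 (-3.74), among transcription factors known to induce DDIT4 or sestrins. Of all tested genes, 37.2% were called lower.

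The regulatory subunits of AMPK fell where the catalytic subunits were not called in the main fit. The catalytic genes PRKAA1 and PRKAA2 were called lower with the correction for GC content (-0.28 and -0.31) or for transcript length (-0.19 and -0.30). PRKAB2 and PRKAB1, the beta subunits that hold the complex together and bind glycogen, averaged 32.6 ± 2.17 and 14.6 ± 1.84 CPM in high glucose, against 74.2 ± 7.38 and 33.02 ± 1.99 CPM in low glucose (SD, n = 4 each). PRKAG1 and PRKAG2, the gamma subunits that bind AMP, averaged 49.4 ± 2.94 and 20.5 ± 0.798 CPM in high glucose, against 96.6 ± 8.05 and 25.4 ± 1.74 CPM in low glucose. All 4 tested genes of this list of 5 fell (PRKAG3 had no row), with log2 fold changes of -1.16 for PRKAB2, -1.13 for PRKAB1, -0.95 for PRKAG1 and -0.30 for PRKAG2 (limma, adjusted p at most 0.00196). PRKAG2 was not called at the same total (-0.06). Over all tested genes, 37.2% were called lower. The difference between regulatory and catalytic subunits was not tested. Among the 7 upstream genes, 3 rose and 2 fell: the scaffold proteins CAB39L (1.27) and CAB39 (0.49) and the pseudokinase STRADB (0.78) of the LKB1 complex rose, and STRADA, the paralog of STRADB (-0.41, named after its value was seen), and CAMKK2, a calcium-dependent AMPK kinase, fell (-0.36, or -0.12 and not called at the same total). The LKB1 kinase gene STK11 itself was not called (0.10; limma, adjusted p = 0.273).

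Partners in the mTOR complexes moved in both directions, 3 higher, 3 lower and 3 not called of 9. MLST8, a subunit of both complexes, averaged 13.7 ± 1.39 CPM in high and 44.9 ± 3.57 CPM in low glucose (log2 fold change -1.64; limma, adjusted p = 7.87e-11). AKT1S1, the inhibitory subunit PRAS40 of mTORC1, was higher, at 97.2 ± 2.72 CPM in high and 59.2 ± 2.70 CPM in low glucose (0.71). Of the mTORC2 subunits, MAPKAP1 rose (0.54) and RICTOR fell (-0.32, or -0.07 and not called at the same total). On the TSC and RHEB axis, 1 gene rose, 2 fell and 1 was not called of 4. The gene that rose, RHEBL1, a RHEB paralog, averaged 1.71 ± 0.415 CPM in high and 0.986 ± 0.367 CPM in low glucose (0.46; limma, adjusted p = 0.0287), and its call was lost after quantile scaling (0.26) and without high-glucose replicate 1 (0.36) or 2 (0.44) or low-glucose replicate 1 (0.31). DDIT4L, the paralog of DDIT4, averaged 5.61 ± 0.692 CPM in high and 23.0 ± 0.908 CPM in low glucose, a larger fold change (-1.86; limma, adjusted p = 1.53e-10) than that of DDIT4 itself, though the difference was not tested. RHEB, the GTPase that activates mTORC1, fell too, to 134 ± 4.42 CPM in high glucose, against 182 ± 6.38 CPM in low glucose (-0.44).

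Lysosomal amino acid sensing was also mixed. Of 13 genes of the RAG GTPases, Ragulator and their partners, 5 rose and 4 fell, with FNIP2, a partner of folliculin (1.13), and LAMTOR3 (0.68) higher and LAMTOR2 (-0.75) and LAMTOR4 (-0.64) lower. Of 12 genes of GATOR1, GATOR2 and KICSTOR, through which sestrins act on the RAG GTPases, 8 fell, 1 rose and 3 were not called. The shares over all tested genes were 72.9% called and 37.2% lower. NPRL2, a GATOR1 subunit, averaged 15.7 ± 1.59 CPM in high and 30.9 ± 0.774 CPM in low glucose (-0.94; limma, adjusted p = 3.37e-08), and its partner NPRL3 (-0.58), the GATOR2 subunit SEC13 (-0.61) and the KICSTOR subunit ITFG2 (-0.88) fell as well. Of 4 other amino acid sensors, BMT2, the methionine-pathway sensor SAMTOR, rose (0.80), LARS, the leucyl-tRNA synthetase, fell (-0.71) and 2 were not called.

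Among mTORC1 effectors all 14 genes were called, 5 higher and 9 lower, where 72.9% of all tested genes were called. EIF4EBP1, a translation repressor that mTORC1 inactivates, averaged 98.6 ± 8.91 CPM in high and 257 ± 10.7 CPM in low glucose (-1.38; limma, adjusted p = 7.99e-12). Its paralog EIF4EBP2 moved the other way, at 104 ± 2.59 CPM in high and 30.8 ± 1.77 CPM in low glucose (1.73; limma, adjusted p = 2.59e-13), as did their target EIF4E (1.19). GRB10, an mTORC1 substrate that dampens insulin signaling, fell (-1.001). Of 9 tested AMPK substrates 4 rose and 3 fell, and the 4 named by smallest p all rose: ACACA (acetyl-CoA carboxylase, 0.83), TBC1D4 (a regulator of glucose transporter traffic, 1.71), PFKFB3 (a glycolytic regulator, 1.01) and FOXO3 (0.73). The substrate PPARGC1A was below the filter. Of 9 genes of PI3K and AKT signaling, 4 rose and 3 fell, with PIK3CA, a catalytic subunit of PI3K (0.66), and the kinase SGK1 (0.40) among those that rose.

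Of 9 listed transcription factors known to induce DDIT4 or sestrins, 7 fell, 1 rose and 1 was not called, with a median of -0.55. Among all tested genes, 37.2% were called lower and the median was 0.00. ATF4, the effector of the integrated stress response that induces DDIT4 and SESN2, averaged 535 ± 4.30 CPM in high and 870 ± 10.6 CPM in low glucose (-0.70; limma, adjusted p = 9.31e-12). DDIT3 (CHOP), a stress-induced C/EBP family factor, averaged 43.9 ± 0.759 CPM in high and 597 ± 19.5 CPM in low glucose (-3.74). Of the hypoxia-inducible factors, EPAS1 fell (-1.03) and HIF1A rose (0.25, named after its value was seen). Of the FOXO factors, FOXO1 was the gene of this list not called (-0.30, named after its value was seen). FOXO3 rose (0.73) but was listed among the AMPK substrates, so the counts of this list leave it out.

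The genes whose pattern over the 8 libraries was most like that of each member were sought among 10919 genes with a mean of at least 5 CPM, as the smallest Euclidean distance between centered log2(CPM + 1) values. For TSC2 they were HSF1 (distance 0.110), FBXW5 (0.122) and VPS37C (0.142), and for SESN2 they were BTBD6 (0.135), TCN2 (0.136) and MRPL21 (0.139). DDIT4 was closest to COQ6 (0.131), MAN2C1 (0.149) and BAX (0.152). The nearest to SESN1 were ZNF518A (0.127), PGBD1 (0.148) and NUDT12 (0.152), and none of the 10 genes was among the nearest 3 of another. HSF1, the nearest to TSC2, averaged 87.0 ± 11.8 CPM in high and 231 ± 16.7 CPM in low glucose.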

How the data were processed

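RNA of Hs578T cells was sequenced from 4 high-glucose and 4 low-glucose libraries, grouped by their treatment labels. Nothing states that the 4 replicates of a group were separate experiments, and p values then reflect only the spread of these libraries, which may be technical. The values are 1 table of normalized signal that the authors deposited with no further description than normalized. Per the submitters' processing notes, edgeR and hg38 were used, and the methods of the study describe CPM with TMM factors and a filter of 0.5 CPM in 2 samples for its RNA-Seq, and on this basis the values were read as CPM. Those methods name Tophat and hg19 for RNA-Seq of tumors and refer the xenografts to the same steps. For cultured cells they name no aligner, and the cell lines they list for RNA-Seq do not include Hs578T. The notes of these libraries name hg38, so which aligner made this table is unclear. Its counting program is not given in the sources used here. Of values below 50 reads, 71.3% to 73.7% were whole within 0.005 read, with the most frequent positive value of a library taken as 1 read, so no count model was used. As 1552 rows were 0 in all 8 libraries, no such filter had been run within this table.

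The 15570 genes that reached 0.5 CPM in 2 or more libraries were tested with limma 3.58.1 (R 4.3.3) on log2(CPM + 1), with trended variance and no covariates. The fit was run on simulated data with few changed genes and independent noise for each gene. That setting is unlike these data, so it does not give the error rate here. Transcript length and GC content are those of the canonical (for DDIT4, the longest) transcript in the GENCODE annotation, and positions and start regions are from RefSeq on GRCh38.p14, the assembly of hg38. The alternatives were pseudocounts of 0.1 and 5, other filters, 3 other scalings, fits without trend or with robust variance, a replicate block, leaving out each library and an FDR of 0.3. Loess corrections (span 0.5) for GC content and transcript length, and all scalings of the ratios between members, were chosen after seeing the data. The 10 genes, the lists and the tests were chosen with earlier results of these data known. Named genes were the 10 members, up to 4 called genes of each list by smallest p, and the 3 genes nearest in pattern, given here for 4 members. A few genes that this rule selects are not reported here. Protein sequences were not used here.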

Additional observations from a re-analysis of the deposited data

How the results depend on the processing

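TSC2, SESN2, DDIT4, SESN3 and SESN1 kept their direction and call in all 20 alternatives, with log2 fold changes of -1.54 to -1.11, -1.13 to -0.79, -0.98 to -0.67, -0.82 to -0.39 and 0.47 to 0.95. MTOR kept its call in 18 of 20. With all libraries at the same total, the fold changes of MTOR (0.092), RPTOR (0.092), TSC1 (0.15), PRKAA1 (0.15) and PRKAA2 (0.12) turned positive, and those of TSC1 and PRKAA1 were then called higher. Quantile scaling put TSC1 at 0.0022 (adjusted p = 0.972), and the GC correction put RPTOR at 0.14 (adjusted p = 0.0814). After the correction for transcript length all 10 genes were called, 1 higher and 9 lower, against 73.7% of all genes (5610 higher and 5766 lower). The count of called genes among the 10 was 6 or 7 when a library was left out and 5 to 10 under the other settings at an FDR of 0.05. That among the list genes was 72 to 75 and 71 (of 88 tested, with the filter of 5 CPM) to 81, and 84 at an FDR of 0.3. Over all genes it was 10963 to 11064 (of 15359 to 15486 tested) when a library was left out. Under the other settings it was 9147 (of 11095 tested, with the filter of 5 CPM) to 11728 (of 19525 tested, with no filter). At an FDR of 0.3 it was 13381 of 15570. RHEBL1 lost its call without high-glucose replicate 1 (0.36) or 2 (0.44) or low-glucose replicate 1 (0.31), and with quantile scaling (0.26). The log2 difference of the SESN1 to SESN3 ratio was 1.49 with a pseudocount of 0.1, as the smaller pseudocount shrinks the low SESN1 less, and 1.19 with quantile scaling. With the GC correction the differences were -0.0175 for SESN3 to SESN2, 1.38 for SESN1 to SESN2, 0.97 for TSC1 to TSC2 and 0.25 for RPTOR to MTOR, and with the length correction 0.24 for SESN3 to SESN2. The cause of the other shifts was not tested.

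High- and low-glucose libraries with the same replicate number correlated at -0.027, 0.112, 0.012 and 0.084 in their deviations from the group mean. Those with different numbers correlated at -0.150 to 0.076. The numbers were not read as pairs in the main fit, and whether they mark pairs was not tested. With the replicate number as a block, 7 of the 10 genes were called (PRKAA1 added, -0.09, adjusted p = 0.0257), 75 of the 94 list genes and 11494 of 15570 genes, against 11350 without it. At an FDR of 0.3, 9 of the 10 genes were called, against 85.9% of all genes. Depth limits SESN1 most: its lowest value, 3.82 CPM in low-glucose replicate 2, rested on 34 estimated reads.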
